A study of Danio rerio with 16 samples.

Results

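The miR-29 family was measured by 2 of the 248 miRNAs on a custom zebrafish array, dre-miR-29a and dre-miR-29b. Its members were found by name, as every spot that was not a control and whose name was dre-miR-29 followed by a letter. The family itself was chosen on earlier results of these same 16 arrays, in which its RMA values differed between the groups. Its levels and differences are therefore given as a description, with no p-value for a member. Liver RNA of adult female zebrafish was hybridized to 4 arrays for each of 4 groups. Fasted/FLX fish were without food for 7 days in water with 540 ng/L fluoxetine (FLX), a selective serotonin reuptake inhibitor. Fed/FLX fish were fed for the same 7 days in water with 540 ng/L FLX, Fasted fish went without food in water with 0 ng/L, and Fed fish, the control, were fed in water with 0 ng/L. Each sample pooled a pair of livers, and each group was held in a tank of its own, so that group and tank cannot be told apart.

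MicroRNAs are short RNAs that guide a silencing complex to messenger RNAs through their seed, the bases near the 5′ end, and so lower the amount of protein made. The miR-29 members share a seed and have near-identical mature sequences. In mammals the family is known for repressing collagens and other extracellular matrix genes and the DNA methyltransferases Dnmt3a and Dnmt3b. It is known to be lost from hepatic stellate cells, the matrix-producing cells of the liver, during fibrosis, and in rodents it is known for acting on the liver's response to insulin. In the RefSeq gene list for zebrafish (assembly GRCz12tu, used here for names and order only), 4 miR-29 genes were listed. The gene mir29a-1 lay next to a miR-29b gene (dre-mir-29b3, also listed as mir29b-2) with 0 genes between them, and dre-mir-29b-1 and mir29b3 lay on other chromosomes. The array measures mature RNA and does not tell these genes apart.

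Each member had 60 spots per array, 30 for each of 2 probes, and 14880 of the 15595 spots of an array were for miRNAs. Values are RMA values, the log2 intensity after background correction and quantile normalization over the 16 arrays. Detection on an array asked for 50% or more of a miRNA's spots to be well above background. By this rule 64 to 92 miRNAs per array were detected, with 49 miRNAs detected on all 16 arrays and 140 on no array. The hepatocyte miRNA dre-miR-122 was detected on all 16 arrays, as the label liver calls for. The 4 brain and 5 egg and early embryo miRNAs on the array were detected on none. FLX and slide column cannot be told apart, since the FLX samples filled columns 2 and 4 of each slide and the samples without FLX columns 1 and 3.

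The deposited table of processed values names a sample in each column heading. The group of that sample often differs from that of the scan the column matched. Of the table's 16 columns, 14 matched (within 0.001) a scan that belongs to a different sample, and 12 of these to a different group. Groups here follow the labels of the scans. The interaction of FLX and fasting is the difference between groups with and without FLX in fasted fish, minus that in fed fish. By the headings of the table, it was -0.49 for dre-miR-29a and -0.54 for dre-miR-29b, against 0.86 and 1.04 by the scans. Every direction given here by the scans therefore depends on the scan labels, and which assignment is right was not tested.

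Both members were highest in Fasted/FLX livers. dre-miR-29a was at 8.57, 8.34, 8.29 and 8.28 in Fasted/FLX livers, at 7.42, 8.11, 7.85 and 7.65 in Fed/FLX livers, at 7.78, 7.83, 7.99 and 7.70 in Fasted livers, and at 7.96, 8.12, 8.27 and 7.93 in Fed livers. The 4 Fasted/FLX arrays lay above all 12 others, the lowest of them only just above Fed replicate 3. Group means were 8.37 ± 0.14 in Fasted/FLX, 7.75 ± 0.29 in Fed/FLX, 7.83 ± 0.12 in Fasted and 8.07 ± 0.16 in Fed livers (SD, n = 4 each).

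dre-miR-29b was at 6.29, 6.34, 6.30 and 6.23 in Fasted/FLX livers, at 5.24, 6.09, 5.47 and 5.46 in Fed/FLX livers, at 5.49, 5.80, 6.01 and 5.72 in Fasted livers, and at 6.03, 6.23, 6.11 and 5.90 in Fed livers. Again the 4 Fasted/FLX arrays lay above the other 12, with a narrow gap to Fed replicate 2, and Fed/FLX held both the lowest array and the widest spread. Group means were 6.29 ± 0.05 in Fasted/FLX, 5.57 ± 0.36 in Fed/FLX, 5.76 ± 0.21 in Fasted and 6.07 ± 0.14 in Fed livers (SD, n = 4 each). The order of the group means was thus the same for both members, Fasted/FLX, then Fed, then Fasted, then Fed/FLX. Of the neighbours in this order, Fasted/FLX and Fed did not overlap for either member, while Fasted overlapped with Fed, and Fed/FLX with Fasted, for both.

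**Figure D1:**
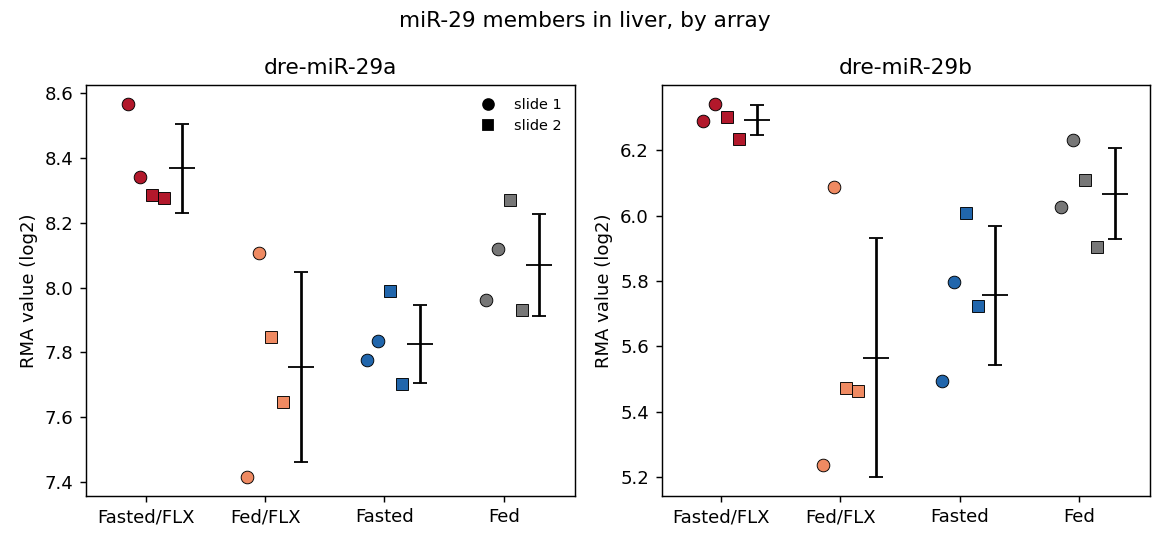
RMA values (log2, vertical axis) of dre-miR-29a and dre-miR-29b on each of the 16 arrays, by group, with circles for slide 1 and squares for slide 2. The bar beside each group is the mean ± SD of its 4 arrays, and the Fasted/FLX arrays, at 8.28 to 8.57 for dre-miR-29a and 6.23 to 6.34 for dre-miR-29b, lie above all others.

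FLX in fasted fish went with higher miR-29. In Fasted/FLX against Fasted livers, the log2 difference was 0.54 for dre-miR-29a (SE 0.13, 1.46-fold) and 0.54 for dre-miR-29b (SE 0.15, 1.45-fold). Both members were called by limma (adjusted p under 0.05), as were 6.45% of the 248 miRNAs tested, and the groups did not overlap for either, as for 12.9% of all. The family was chosen on these contrasts, so nothing is read from its standing against those shares. The call for dre-miR-29b rested near the threshold. It was kept in 3 of the 16 fits that left out an array in turn, those without Fasted replicate 3, Fed/FLX replicate 1 or Fed/FLX replicate 2, and in 2 of 10 other settings, the replicate block and the offset. For dre-miR-29a it was kept in 12 of 16, and lost without Fasted replicate 1, Fasted replicate 4, Fasted/FLX replicate 1 or Fasted/FLX replicate 4. The call for dre-miR-29a was also lost on total gene signals, at 0.52.

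FLX in fed fish went with lower values of both. In Fed/FLX against Fed livers, the log2 difference was -0.32 for dre-miR-29a (SE 0.13), which was not called, and -0.50 for dre-miR-29b (SE 0.15), which was called, as were 12.9% of all miRNAs. The groups overlapped for both members, and did not overlap for 12.1% of all miRNAs. The overlap came from Fed/FLX replicate 2, which was at 8.11 for dre-miR-29a and 6.09 for dre-miR-29b, within the range of the Fed livers. Without that array the differences were -0.43 for dre-miR-29a, which was then called, and -0.69 for dre-miR-29b. The call for dre-miR-29b was kept in 4 of the 16 fits that left out an array, those without Fasted replicate 1, Fasted replicate 3, Fed/FLX replicate 2 or Fasted/FLX replicate 2. It was also lost with slide as a block, without quantile normalization and with arrays centred on the median (at -0.48), and on total gene signals. When spot signals shared a 75th percentile, also without quantile normalization, the call was kept, at -0.87.

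Fasting in fish without FLX went with slightly lower values, which were not called. In Fasted against Fed livers, the log2 difference was -0.25 for dre-miR-29a (SE 0.13), which turned to 0.10 without quantile normalization, and -0.31 for dre-miR-29b (SE 0.15), which then was -0.02. In that setting, with arrays centred on the median, the miRNAs detected on all arrays shifted together, by a median of 0.41 in this comparison. When spot signals shared a 75th percentile, also without quantile normalization, that shift was 0.03. The member differences were then -0.33 for dre-miR-29a and -0.37 for dre-miR-29b. On total gene signals they were -0.35 and -0.46. In this comparison 0% of all miRNAs were called by limma, while 29 of the 248 had an unadjusted p under 0.05. The methods' test, an analysis of variance with Tukey's comparison and no adjustment over miRNAs, called 10 of them. Groups overlapped for both members, and did not overlap for 8.47% of all miRNAs. Same-numbered Fasted and Fed arrays deviated together, with low correlations of 0.11 to 0.27, and within these 4 pairs every difference was negative. Same-numbered arrays of all groups share a slide, and the paper describes no pairing. Fasted minus Fed was -0.19, -0.28, -0.28 and -0.23 for dre-miR-29a and -0.53, -0.43, -0.10 and -0.18 for dre-miR-29b, in order of number. With the replicate number as a block, neither member was called.

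Fasting in fish with FLX ran the other way. In Fasted/FLX against Fed/FLX livers, the log2 difference was 0.61 for dre-miR-29a (SE 0.13, 1.53-fold) and 0.73 for dre-miR-29b (SE 0.15, 1.65-fold). Both were called, as were 1.61% of all miRNAs, and the groups did not overlap, as for 5.24% of all. The call for dre-miR-29a was lost without Fed/FLX replicate 1, Fasted/FLX replicate 1 or Fasted/FLX replicate 2, and that for dre-miR-29b without Fed/FLX replicate 1 or Fasted/FLX replicate 2. On total gene signals both calls were lost, at 0.66 for dre-miR-29a and 0.82 for dre-miR-29b.

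With both treatments against neither, the differences were smaller. In Fasted/FLX against Fed livers, the log2 difference was 0.30 for dre-miR-29a (SE 0.13) and 0.22 for dre-miR-29b (SE 0.15). Neither was called, where 4.84% of all miRNAs were, although the groups did not overlap for either, as for 16.5% of all. Without quantile normalization and with arrays centred on the median, the differences were 0.81 and 0.60, and both were called. The median shift over the miRNAs detected on all arrays was then 0.62. When spot signals shared a 75th percentile, also without quantile normalization, the differences were 0.35 and 0.18, and neither was called. The median shift was then 0.16. The comparisons share groups of arrays, so that their values are set side by side and not counted as separate evidence.

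The interaction of FLX and fasting was 0.86 for dre-miR-29a (SE 0.18) and 1.04 for dre-miR-29b (SE 0.21) on the log2 scale. Both were called, as were 1.61% of all miRNAs. The other miRNAs called, named after their values were seen, were dre-miR-181a-5p at -1.23 (SE 0.22) and dre-miR-181c at -0.91 (SE 0.14), which ran opposite to the miR-29 members. In mammals miR-181a is known for its part in lymphocyte development. The call for dre-miR-29b was kept in 16 of 16 fits that left out an array, and that for dre-miR-29a in 13, being lost without Fasted replicate 1, Fasted replicate 4 or Fasted/FLX replicate 1. Both calls were lost without quantile normalization and with arrays centred on the median, where the interactions were 1.00 and 1.09. Both were kept when spot signals shared a 75th percentile, also without quantile normalization, at 1.09 and 1.42. On total gene signals the call for dre-miR-29b was lost, at 1.27, and that for dre-miR-29a was kept, at 1.01.

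**Figure D2:**
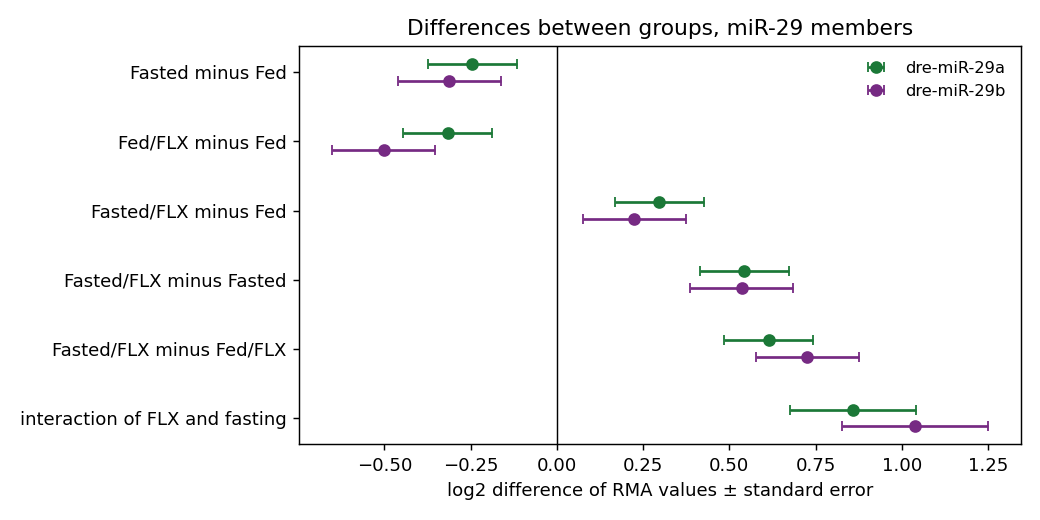
Log2 difference of RMA values ± standard error (horizontal axis) for dre-miR-29a and dre-miR-29b in the 5 comparisons between groups and for the interaction of FLX and fasting. Both members lie below 0 for Fasted minus Fed and Fed/FLX minus Fed and above 0 in the rest, with interactions of 0.86 and 1.04.

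Within each slide, where each group had 2 arrays, no direction changed. The interaction was 0.93 on slide 1 and 0.79 on slide 2 for dre-miR-29a, and 1.13 on slide 1 and 0.94 on slide 2 for dre-miR-29b. The difference of Fasted/FLX from Fasted livers was 0.65 on slide 1 and 0.44 on slide 2 for dre-miR-29a, and 0.67 on slide 1 and 0.40 on slide 2 for dre-miR-29b. The smallest within-slide value was that of Fasted against Fed for dre-miR-29b on slide 2, at -0.14, against -0.48 on slide 1. These values were not tested.

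The probes of a member can be read on their own, since each had 30 spots. For dre-miR-29a, probes A_38_P00003120 and A_38_P00003121 were well above background on 100% of their spots on every array, and their interactions were 0.84 and 0.88. They moved almost as 1, with a Pearson correlation of 0.99 over the 16 arrays. For dre-miR-29b, probe A_38_P00002829 was well above background on 100% of its spots on every array, with an interaction of 1.11. The other probe of dre-miR-29b was dim. Probe A_38_P00002828 had between 0% and 100% of its spots above background, RMA values of 3.89 to 5.06 and an interaction of 0.92.

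The dim probe decided where dre-miR-29b counted as detected. dre-miR-29a was detected on 16 of 16 arrays and dre-miR-29b on 13, with 4 of 4 Fasted/FLX, 1 of 4 Fed/FLX, 4 of 4 Fasted and 4 of 4 Fed arrays. The lowest share of its spots above background was 48.3%, close to the 50% asked for, and by the scanner software's own mark it was detected on 16 of 16. On its bright probe alone, dre-miR-29b was at 7.68 ± 0.09 in Fasted/FLX, 6.92 ± 0.37 in Fed/FLX, 7.04 ± 0.22 in Fasted and 7.40 ± 0.15 in Fed livers (SD, n = 4 each). The order of the groups was that of the full set of spots. The dim probe gave a smaller difference of Fasted/FLX from Fasted, at 0.30 against 0.64 for the bright one. Levels of the members are not compared with each other, since probes differ in how they bind.

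**Figure D3:**
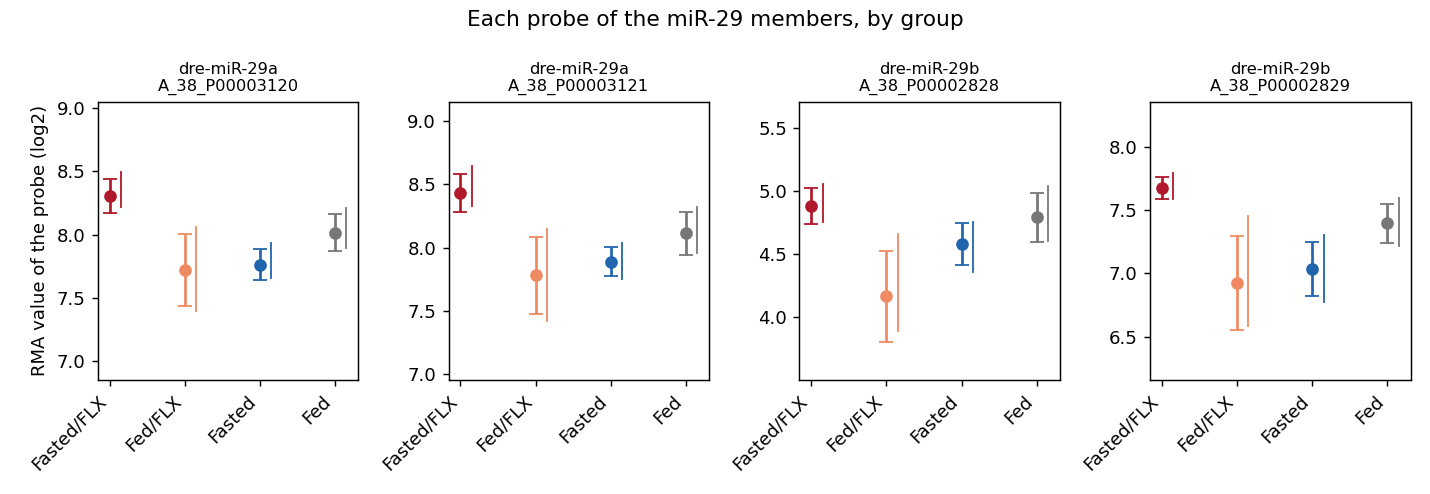
RMA value (log2, vertical axis) of each of the 4 miR-29 probes by group, as the mean ± SD of 4 arrays, with a thin line from the lowest to the highest array. Each panel spans the same range of 2.2 on the log2 scale, and in all 4 the Fasted/FLX mean is the highest and the Fed/FLX mean the lowest.

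The members moved together over the arrays. The Pearson correlation of dre-miR-29a and dre-miR-29b over the 16 arrays was 0.92 and Spearman's rho 0.96, and after the group means were taken out it was 0.79. The 2 miRNAs share arrays, normalization and near-identical sequence, and whether a probe of one member binds the other was not tested. Correlations between a probe of dre-miR-29a and one of dre-miR-29b ran from 0.78 to 0.94. They are given as descriptions.

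Among the 48 other miRNAs detected on all 16 arrays, those with the pattern most like dre-miR-29a were dre-miR-30e-5p, dre-miR-126b-3p and dre-miR-101a. Their Pearson correlations with it over the 16 arrays were 0.67, 0.65 and 0.65. For dre-miR-29b they were dre-miR-30e-5p at 0.70, dre-miR-101a at 0.68 and dre-miR-192 at 0.61. The least alike was dre-miR-181a-5p for both, at -0.81 with dre-miR-29a and -0.77 with dre-miR-29b. These points share arrays and groups, and taking out the group means made some values smaller and others larger. Within groups the correlation with dre-miR-181a-5p was -0.39 for dre-miR-29a and -0.24 for dre-miR-29b. With dre-miR-29a it was 0.75 for dre-miR-30e-5p, 0.29 for dre-miR-126b-3p and 0.41 for dre-miR-101a. With dre-miR-29b it was 0.65 for dre-miR-30e-5p, 0.42 for dre-miR-101a and 0.84 for dre-miR-192.

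None of these 4 nearest miRNAs was called in the interaction, where 1.61% of all miRNAs were. dre-miR-30e-5p averaged 8.16 ± 0.18 in Fasted/FLX, 7.89 ± 0.31 in Fed/FLX, 8.06 ± 0.08 in Fasted and 8.32 ± 0.11 in Fed livers (SD, n = 4 each), with an interaction of 0.53. Its highest group was Fed, where that of the members was Fasted/FLX. dre-miR-126b-3p, of the endothelial miR-126 family, was highest in Fasted/FLX as the members were. It averaged 6.12 ± 0.21 in Fasted/FLX, 5.79 ± 0.14 in Fed/FLX, 5.80 ± 0.13 in Fasted and 5.84 ± 0.15 in Fed livers (SD, n = 4 each), with an interaction of 0.37. dre-miR-101a, also highest in Fasted/FLX, averaged 6.96 ± 0.17 in Fasted/FLX, 6.27 ± 0.50 in Fed/FLX, 6.72 ± 0.10 in Fasted and 6.64 ± 0.09 in Fed livers, with an interaction of 0.61. dre-miR-192 averaged 9.53 ± 0.08 in Fasted/FLX, 9.28 ± 0.37 in Fed/FLX, 9.69 ± 0.13 in Fasted and 9.77 ± 0.10 in Fed livers. Its interaction was 0.33, and unlike the members its Fasted/FLX mean lay below those of Fasted and Fed. dre-miR-181a-5p mirrored the members, at 5.85 ± 0.20 in Fasted/FLX, 6.65 ± 0.23 in Fed/FLX, 6.52 ± 0.05 in Fasted and 6.09 ± 0.34 in Fed livers.

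Other miRNAs known in mammals for acting in liver fibrosis and stellate cells were counted from a list of 31 on the array, which included the miR-21, miR-30, miR-192 and miR-221 families. Of these 31, 21 were detected on at least 1 array. Over all miRNAs, 140 were detected on no array, so shares called over all miRNAs are not a matched background for the list. In Fed/FLX against Fed livers, 3 of the 31 rose (dre-miR-16c, dre-miR-221 and dre-miR-30e-3p) and 3 fell (dre-miR-192, dre-miR-30b and dre-miR-30e-5p), where 12.9% of all miRNAs were called. Of these, dre-miR-221 was detected on only 5 of 16 arrays. dre-miR-30e-3p rose and dre-miR-30b fell in Fasted/FLX against Fasted livers, where 6.45% of all were called. dre-miR-30a was called downward there as well, but was detected on 0 of 16 arrays. In Fasted/FLX against Fed livers, where 4.84% of all were called, dre-miR-16c rose. In Fasted against Fed, Fasted/FLX against Fed/FLX and the interaction, 0 of the 31 were called, where 0%, 1.61% and 1.61% of all were. The list's median log2 interaction was 0.04, against -0.02 over all miRNAs.

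miRNAs known in mammals for acting on insulin response or glucose and lipid metabolism were counted from a list of 27 on the array, of which 17 were detected on at least 1 array. In Fed/FLX against Fed livers, 6 of the 27 were called upward, each a let-7 miRNA, and dre-miR-26a fell. The let-7 miRNAs dre-let-7a, dre-let-7e, dre-let-7h and dre-let-7j were not called there, though dre-let-7a and dre-let-7e were detected on all 16 arrays. Over all 248 miRNAs, 22 were called upward and 10 downward in that comparison. The let-7 family is known in mammals for lowering components of the insulin signalling pathway. In Fasted/FLX against Fed livers, 5 were called upward, 4 of them let-7 miRNAs and the other dre-miR-26b, beside 10 upward and 2 downward over all miRNAs. One let-7 miRNA called upward in both, dre-let-7d, was detected on 0 of 16 arrays, and dre-let-7i was detected on 11. Only dre-let-7i rose and only dre-miR-26a fell, of this list, in Fasted/FLX against Fasted livers, where 6.45% of all were called. None of the 27 was called in Fasted against Fed, in Fasted/FLX against Fed/FLX or in the interaction. Of all miRNAs, 0%, 1.61% and 1.61% were called there, in that order. The list's median in Fed/FLX against Fed was 0.11, against 0.01 over all miRNAs.

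Most calls in the 2 lists depended on the scaling. Each of the 24 calls kept its direction under the 3 other scalings and the offset tried on the scans. Of the 24, 11 were still called without quantile normalization, 5 when spot signals shared a 75th percentile, 2 on total gene signals and 23 with the offset.

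**Figure D4:**
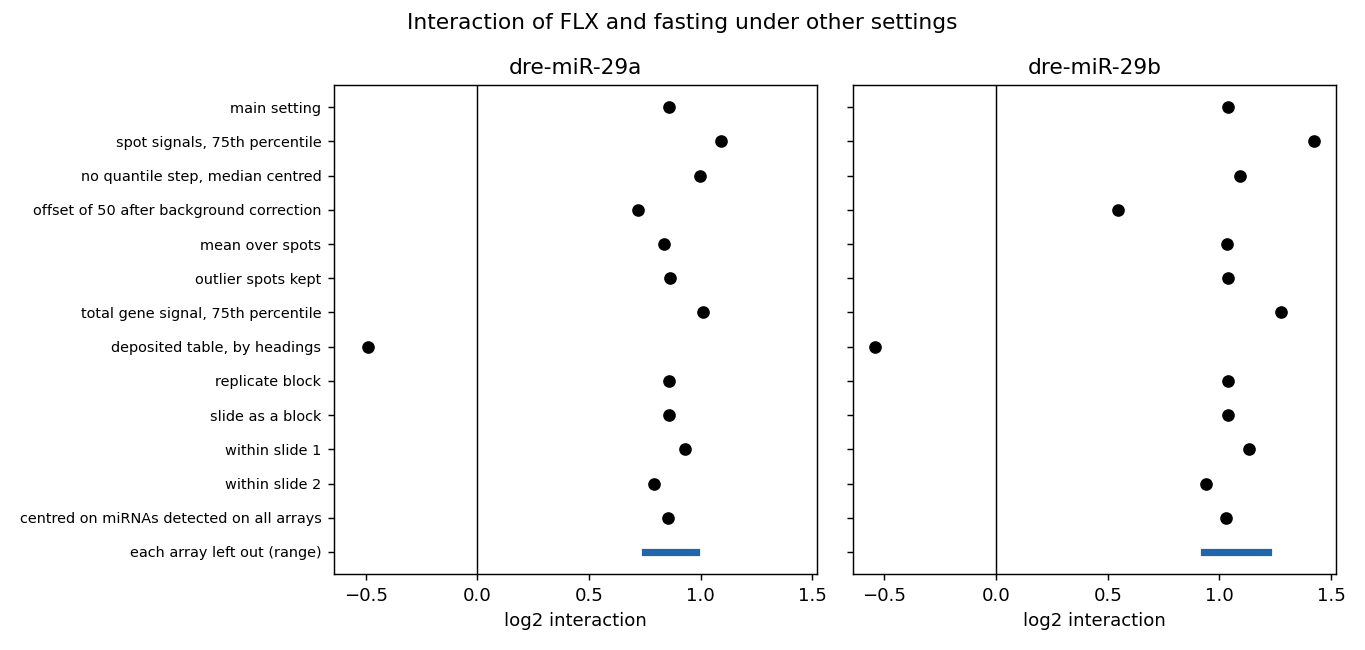
Interaction of FLX and fasting on the log2 scale (horizontal axis, the same for both panels) for dre-miR-29a and dre-miR-29b under the main setting and each alternative, with the range over fits that left out an array in turn as a bar. All values lie above 0 apart from those of the deposited table by its headings, at -0.49 and -0.54. The replicate and slide blocks could not change the value.

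The brightness of the arrays moved with the groups. Between 32.1% and 35.4% of the miRNA spots stood well above background on Fasted/FLX arrays, between 25.8% and 33.5% on Fed/FLX arrays, between 28.5% and 33.3% on Fasted arrays and between 26.3% and 29.3% on Fed arrays. Its Pearson correlation with dre-miR-29a over the 16 arrays was 0.52, and 0.29 with dre-miR-29b. After the group means were taken out, these were 0.50 and 0.15. Centring the RMA values on the miRNAs detected on all arrays gave interactions of 0.85 and 1.03. These values were already quantile normalized, so that centring could hardly change them. The part of brightness in the result was not tested. Before any normalization, the total gene signal of dre-miR-29a averaged 1660 ± 268 in Fasted/FLX, 719 ± 288 in Fed/FLX, 862 ± 97.9 in Fasted and 848 ± 142 in Fed livers (SD, n = 4 each).

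Markers of other cell types were summed as a check on the makeup of the livers. In bulk samples a change in the number of cells of a type and a change in RNA per cell cannot be told apart. The 3 endothelial miR-126 miRNAs, 2 of them detected on all 16 arrays, had linear RMA sums between 244 and 350 in Fasted/FLX, between 220 and 267 in Fed/FLX, between 225 and 253 in Fasted and between 236 and 292 in Fed livers. The 5 mesenchymal and smooth muscle miRNAs, 2 detected on all 16 arrays and 1 on none, had sums between 468 and 544 in Fasted/FLX, between 476 and 652 in Fed/FLX, between 460 and 569 in Fasted and between 429 and 534 in Fed livers. For both lists the ranges overlapped between all groups.

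Other markers had ranges that did not overlap between Fasted/FLX and Fed. dre-miR-122, which marks hepatocytes, lay between 5121 and 5152 on the linear RMA scale in Fasted/FLX, between 2968 and 5149 in Fed/FLX, between 4292 and 5123 in Fasted and between 3874 and 4510 in Fed livers. The 6 white blood cell miRNAs, 2 detected on all 16 arrays and 2 on none, had sums between 156 and 171 in Fasted/FLX, between 139 and 190 in Fed/FLX, between 150 and 184 in Fasted and between 173 and 225 in Fed livers. Fasted/FLX thus lay above Fed for dre-miR-122 and below Fed for the white blood cell list, with no overlap. These 2 groups also did not overlap for 16.5% of all miRNAs, so nothing on the makeup of the livers is read from this. The 2 erythroid miRNAs, 1 detected on all 16 arrays, had sums between 535 and 855 in Fasted/FLX, between 614 and 1418 in Fed/FLX, between 735 and 1094 in Fasted and between 312 and 736 in Fed livers, which overlapped for every pair of groups. None of the 8 skeletal and heart muscle miRNAs was detected on all arrays, and 6 were detected on none. The 4 pancreas miRNAs were detected on 15, 13, 11 and 0 of 16 arrays, so that most of them gave signal in these liver samples. The sums of both lists overlapped for every pair of groups. The brain sums, of miRNAs never detected, did not overlap either between Fasted, at 20.9 to 22.4, and Fed livers, at 20.3 to 20.6. None of the markers was called in the interaction, where 1.61% of all miRNAs were. The part of the markers in the miR-29 levels was not tested.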

How the data were processed

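Liver miRNA was measured on 16 one-colour arrays, 4 for each of the groups Fasted/FLX, Fed/FLX, Fasted and Fed, on 2 slides of 8. Groups were taken from the sample labels. The authors deposited the output of Agilent Feature Extraction 11.0.1.1 for each array, with a background-subtracted intensity for each spot that was not normalized between arrays. A processed table from the authors was deposited too, on the log2 scale, with rows for 166 miRNAs and for 22 controls, and served only as an alternative.

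RMA, which the paper's methods name without settings, was computed with limma 3.58.1 on R 4.3.3: the normal-exponential background model on all spots, removal of control and outlier spots, quantile normalization across all 16 arrays, a log2 step and then median polish (at most 20 iterations). All 248 miRNAs were fitted with limma (lmFit, eBayes) on group means without covariates, and p-values were adjusted by Benjamini-Hochberg within each comparison. A miRNA was called at an adjusted p under 0.05. "Without quantile normalization" means the same RMA steps without it, arrays centred on the median. Each sample is a pair of pooled livers from a group's single tank, so that p-values measure the spread between these pools only. The steps were also run on shuffled arrays of these data with known changes put in. Those changes were larger than the member differences given here, so the run does not show how well differences of this size are found. Figures were drawn with Python 3.11.15 and matplotlib 3.10.9. Arrays have no read depth, and their number limits the precision.

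Members and lists were chosen with earlier results of these data known. Besides the members, the miRNAs named were the 3 with the highest and the 1 with the lowest Pearson correlation with each member, and those called in the lists. Alternatives were other scaling, background, summary, outlier, signal, filter, fold, test, block and detection choices, each probe alone, and each array left out. Replicate numbers were checked by the correlation of deviations from group means, over all miRNAs, of same-numbered arrays. For Fasted and Fed all 4 were over 0.1 (0.193, 0.265, 0.204 and 0.113), the value set for treating the numbers as pairs. These correlations are low, the paper describes no pairing, and same-numbered arrays of all groups share a slide. The main fit has no block, and the block is an alternative. No other pair of groups passed, with at most 2 of 4 correlations above that value. No sequence is printed.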

Additional observations from a re-analysis of the deposited data

Results flagged for a closer look

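For both members, the group mean with FLX was higher than that without in fasted fish and lower in fed fish. In fed fish the groups overlapped for both members, and dre-miR-29a was not called. The call for dre-miR-29b there was kept in 4 of 16 fits that left out an array. Group and tank cannot be told apart, nor can FLX and slide column. The interaction was 0.86 for dre-miR-29a and 1.04 for dre-miR-29b on the log2 scale. Both were called by limma, but the family was chosen with these results known, so the calls add no support. Without quantile normalization and with arrays centred on the median both calls were lost, at 1.00 and 1.09. Both were kept when spot signals shared a 75th percentile, also without quantile normalization, at 1.09 and 1.42. On total gene signals the call for dre-miR-29b was lost. No group of 4 arrays held a member value far enough from the others to pass Dixon's test, for which chance flags about 1 in 20 groups. With only 4 arrays the test can miss an array that stands apart, so no array is cleared by it.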

How the results depend on the processing

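Outside the deposited table by its headings, every member difference kept its direction under the alternatives run apart from dre-miR-29a in Fasted minus Fed, at 0.10 without quantile normalization. For the replicate and slide blocks this was fixed in advance by the layout. The setting without quantile normalization gave -0.018 for dre-miR-29b in Fasted minus Fed, 0.81 and 0.60 in Fasted/FLX minus Fed, 1.095 and 1.07 in Fasted/FLX minus Fed/FLX (dre-miR-29a, then dre-miR-29b), and 20, 12, 41, 9, 14 and 2 miRNAs called in Fasted minus Fed, Fed/FLX minus Fed, Fasted/FLX minus Fed, Fasted/FLX minus Fasted, Fasted/FLX minus Fed/FLX and the interaction, against 0, 32, 12, 16, 4 and 4. Spot signals scaled to the 75th percentile gave dre-miR-29b -0.87 in Fed/FLX minus Fed and 1.05 in Fasted/FLX minus Fed/FLX, interactions of 1.09 and 1.42, and 13, 5 and 4 miRNAs called in Fed/FLX minus Fed, Fasted/FLX minus Fed and Fasted/FLX minus Fasted. An offset of 50 gave dre-miR-29b -0.25 in Fed/FLX minus Fed, 0.29 in Fasted/FLX minus Fasted, 0.36 in Fasted/FLX minus Fed/FLX and 0.54 in the interaction. Total gene signals at a common 75th percentile gave dre-miR-29b -0.78 in Fed/FLX minus Fed and 1.27 in the interaction, and 6, 5, 6 and 1 miRNAs called in Fed/FLX minus Fed, Fasted/FLX minus Fed, Fasted/FLX minus Fasted and Fasted/FLX minus Fed/FLX. On total gene signals neither member was called in Fasted/FLX minus Fasted, Fasted/FLX minus Fed/FLX or Fed/FLX minus Fed. Probe A_38_P00002828 alone gave 0.30 in Fasted/FLX minus Fasted. The causes were not tested.

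By the headings of the deposited table, the values were 0.26 and 0.17 in Fasted minus Fed, 0.24 and 0.23 in Fed/FLX minus Fed, 0.013 and -0.15 in Fasted/FLX minus Fed, -0.25 and -0.31 in Fasted/FLX minus Fasted, -0.23 and -0.38 in Fasted/FLX minus Fed/FLX, and -0.49 and -0.54 in the interaction (dre-miR-29a, then dre-miR-29b), with 130 miRNAs called in Fasted minus Fed, 134 in the interaction and 0 in the rest. The headings put scans into other groups. The scans under each group heading filled a row of a slide, so that heading group and slide row cannot be told apart. The column medians of that table differed only by a constant that sets each column apart from its scan. Rows that share a floor value on the scans would differ between columns by that constant alone. How many of the calls by the headings are such rows was not tested.

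With at least 2-fold asked for, 1 miRNA was called in Fed/FLX minus Fed, 2 in the interaction and 0 in the rest. The methods' test called 10 in Fasted minus Fed and 11 in Fasted/FLX minus Fed/FLX, and with 2-fold 1 in Fed/FLX minus Fed and 0 in Fasted/FLX minus Fed, Fasted/FLX minus Fasted and Fasted/FLX minus Fed/FLX. With each array left out, 0 to 2 were called in Fasted minus Fed, 12 to 39 in Fed/FLX minus Fed, 4 to 19 in Fasted/FLX minus Fed, 2 to 16 in Fasted/FLX minus Fasted, 1 to 7 in Fasted/FLX minus Fed/FLX and 3 to 6 in the interaction. Each replicate number and each slide holds the same count of arrays from every group, so that neither block could change a difference. With the replicate number as a block, the interactions thus stayed at 0.86 and 1.04, and no member call changed. No count over all miRNAs changed by over 1.5 times, the largest change being from 4 to 6 in Fasted/FLX minus Fed/FLX. The insulin and glucose list went from 0 to 1 called in that comparison. Centring on the miRNAs detected on all arrays was chosen after seeing the data.

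The dim dre-miR-29b probe limits the low end of that miRNA.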
